A study of Homo sapiens with 12 samples.

Results

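The late response to epidermal growth factor (EGF) was described in HCC70 cells. HCC70 is an established human breast cancer line of the basal-like, triple-negative kind. The cells stably carried a scrambled control shRNA and had been kept overnight without serum. In 2 libraries the cells had then had 50 ng/ml of EGF for 240 min, and in 2 libraries they were harvested at 0 min, starved and without EGF. These 4 libraries of the 12 in the series were chosen by their labels and column names, and the libraries with the same number (1 or 2) form a pair. The other 8 libraries are the same line with scramble shRNA at 40 min of EGF and with an shRNA against LAD1 (shLAD1) at 0, 40 and 240 min, 2 libraries each. All 12 thus carry an shRNA and were starved. The labels give 1 cell line, 1 shRNA of each kind and no cells kept for 240 min without EGF, so the effect of EGF and that of a further 240 min in serum-free medium cannot be told apart. The numbers 1 and 2 are not said to be separate cultures, so p-values cover the variation between these libraries alone, which may be technical.

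EGF binds the receptor tyrosine kinase EGFR, which signals through RAS and ERK and through PI3K and AKT. ERK first activates genes for short-lived transcription factors, and these then act on later genes, among them phosphatases and adaptors that dampen the same pathway. AKT keeps FOXO transcription factors out of the nucleus, and in starved cells FOXO factors turn on genes of growth arrest, autophagy and cell death.

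The promoters below are those of genes that the results return to, most of them shown with the motif that the group's textbook regulator binds. IL1RL1 is shown with the AP-1 motif, and whether AP-1 acts on it was not tested. Each is the 250 bases before a start annotated by RefSeq (GRCh38.p14). TSC22D3 has 4 such windows and IL1RL1, DDX21 and TXNIP have 2 each, of which 1 holds the motif and was chosen for it. Sequences are read 5′ to 3′ on the gene's strand, with the motif in capitals on whichever strand it lies. The submitters' build is hg19, and these coordinates were not compared with the deposited values.
IL1RL1, the receptor gene with the largest rise, on chr2:102337007-102337256 (+), with TGANTCA, the AP-1 motif: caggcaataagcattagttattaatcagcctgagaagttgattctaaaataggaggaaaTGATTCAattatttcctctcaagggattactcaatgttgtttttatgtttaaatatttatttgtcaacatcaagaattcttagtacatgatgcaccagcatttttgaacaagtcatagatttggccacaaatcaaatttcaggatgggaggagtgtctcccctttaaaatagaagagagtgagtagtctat
ACTG1, cytoplasmic gamma-actin, on chr17:81512800-81513049 (-), with the serum response factor (SRF) motif known as the CArG box: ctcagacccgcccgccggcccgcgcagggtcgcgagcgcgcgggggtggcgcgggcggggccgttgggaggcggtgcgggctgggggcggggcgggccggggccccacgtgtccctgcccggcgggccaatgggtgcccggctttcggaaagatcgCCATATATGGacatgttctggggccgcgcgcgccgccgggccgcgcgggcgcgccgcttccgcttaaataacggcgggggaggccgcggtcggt
DDX21, a nucleolar helicase of ribosome assembly, on chr10:68956397-68956646 (+), with the E-box CACGTG that MYC binds: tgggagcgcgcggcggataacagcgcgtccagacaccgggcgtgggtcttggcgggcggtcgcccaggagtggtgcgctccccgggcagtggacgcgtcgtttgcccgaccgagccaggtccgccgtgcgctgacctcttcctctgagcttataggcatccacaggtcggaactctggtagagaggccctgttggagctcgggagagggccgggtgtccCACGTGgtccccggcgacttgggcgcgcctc
UTP18, a part of the small-subunit processome, on chr17:51260296-51260545 (+), with CACGTG: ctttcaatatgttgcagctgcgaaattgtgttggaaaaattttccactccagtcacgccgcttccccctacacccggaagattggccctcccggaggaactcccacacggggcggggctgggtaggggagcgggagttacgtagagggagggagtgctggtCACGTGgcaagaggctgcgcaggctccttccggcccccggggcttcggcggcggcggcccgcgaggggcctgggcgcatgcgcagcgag
BUB1B, the mitotic checkpoint kinase BUBR1, on chr15:40160819-40161068 (+), with TTTGAA, the core of the cell cycle genes homology region (CHR): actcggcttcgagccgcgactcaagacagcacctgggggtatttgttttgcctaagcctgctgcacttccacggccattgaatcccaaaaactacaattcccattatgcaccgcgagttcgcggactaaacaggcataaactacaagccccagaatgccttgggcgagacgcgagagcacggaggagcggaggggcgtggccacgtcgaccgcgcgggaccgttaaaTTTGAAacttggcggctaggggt
CCNB2, cyclin B2, on chr15:59104896-59105145 (+), with TTTGAA: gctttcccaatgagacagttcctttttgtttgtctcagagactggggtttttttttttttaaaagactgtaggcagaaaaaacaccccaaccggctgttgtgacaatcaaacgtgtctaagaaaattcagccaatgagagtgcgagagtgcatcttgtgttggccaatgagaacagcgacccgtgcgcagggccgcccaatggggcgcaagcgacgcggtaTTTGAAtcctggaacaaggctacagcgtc
TXNIP, an inhibitor of thioredoxin and glucose uptake, on chr1:145996580-145996829 (-), with the forkhead motif TGTTTAC read on the other strand: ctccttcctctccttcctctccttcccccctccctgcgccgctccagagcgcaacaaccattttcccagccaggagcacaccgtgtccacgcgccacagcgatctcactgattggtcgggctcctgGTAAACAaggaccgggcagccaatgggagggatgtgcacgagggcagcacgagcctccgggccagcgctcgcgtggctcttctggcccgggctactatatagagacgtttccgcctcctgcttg
TSC22D3, the leucine zipper protein GILZ, on chrX:107717063-107717312 (-), with TGTTTAC: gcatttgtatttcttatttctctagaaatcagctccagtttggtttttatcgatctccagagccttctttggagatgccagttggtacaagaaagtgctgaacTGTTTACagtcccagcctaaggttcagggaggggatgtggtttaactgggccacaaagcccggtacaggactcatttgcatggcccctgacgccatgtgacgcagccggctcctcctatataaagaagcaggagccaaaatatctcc
Only the motif named for each gene is in capitals. Other motifs counted below also occur in lower case, among them CACGTG in ACTG1, TTTGAA in IL1RL1 and CCAAT in ACTG1, CCNB2 and TXNIP.

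At 240 min of EGF, most of the called genes in lists of adhesion, the actin cytoskeleton, ribosome assembly and feedback on ERK were higher. Most of those in lists of starvation and mitosis were lower. The lists were chosen with earlier results of these data known. Of 13950 genes tested, 2813 (20.2%) passed an adjusted p of 0.05, with 1635 (11.7%) higher and 1178 (8.44%) lower at 240 min than at 0 min. Most changes were moderate. Of the called genes, 997 changed by less than 0.5 on the log2 scale, 350 (2.51% of those tested) rose over 2-fold and 238 (1.71%) fell over 2-fold. Of the called genes 20 rose by over 3 on the log2 scale and 1 fell by as much, the uncharacterized LOC100132078, named after its values were seen. With the library number as a replicate block the count of called genes was 4557 (32.7%), of which 2509 (18%) were higher and 2048 (14.7%) lower. With the number as a block within each shRNA it was 6715 (48.1%). All other counts come from the fit without a block unless stated, which does not use the pairing of the numbers. The split between higher and lower moved with the scaling. It was 58.1% higher as deposited, 40.8% after upper-quartile scaling and 34.1% with total counts, which shifted the median change of all genes by -0.13. Leaving out any of the 4 libraries lowered the count of called genes, to 1499 without the number 1 library and 1354 without the number 2 library at 0 min, and to 1700 and 1399 without the number 1 and number 2 libraries at 240 min.

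Among abundant transcripts most called genes were higher at 240 min, and among scarce ones most were lower. Of 418 genes with a mean of at least 5000 normalized counts over the 4 libraries, 102 (24.4%) were called higher and 10 (2.39%) lower. Of 2404 genes with a mean of 50 to 200, 132 (5.49%) were called higher and 249 (10.4%) lower. With total-count scaling the class of at least 5000 had 69 genes called higher and 34 lower. The class from 1000 to 5000, of 3099 genes, turned with the scaling, with 626 higher and 203 lower as deposited and 419 higher and 495 lower with total-count scaling. The genes called higher held 25.4% of all normalized counts at 240 min and 18% at 0 min. Those called lower held 4.42% at 240 min and 7.05% at 0 min.

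**Figure D1:**
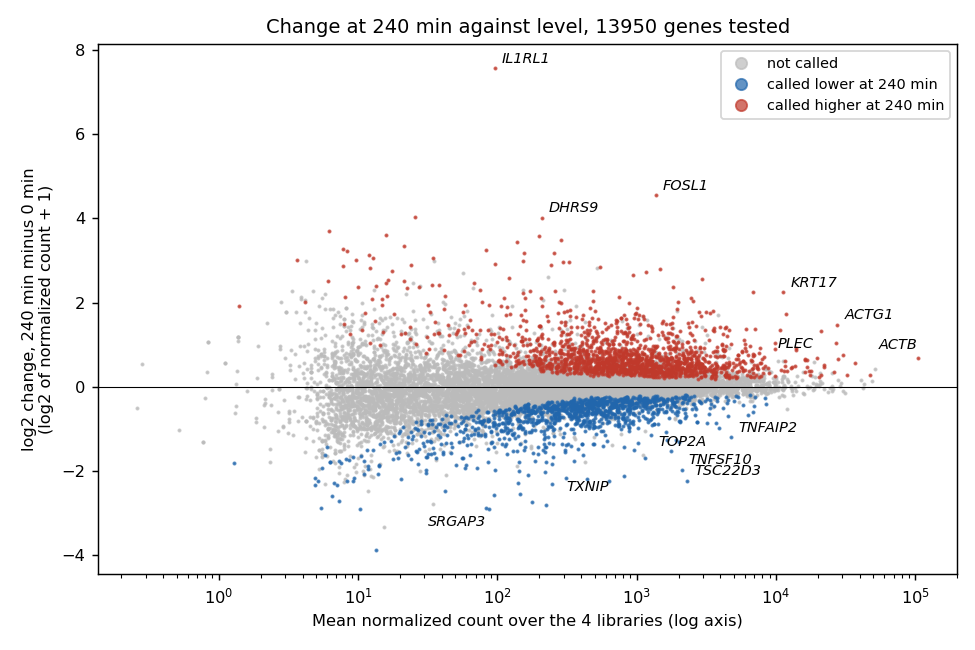
The log2 change (240 min minus 0 min, on normalized count + 1) of the 13950 genes tested is plotted against the mean normalized count of the 4 libraries on a log axis, with called genes in red (higher) and blue (lower). Red points reach from genes near 1 count to ACTB at the right edge, and few blue points lie right of 5000.

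The 4 libraries held 12428618 to 12779335 reads and the 12 libraries up to 16721013. The shRNA target LAD1, which encodes the anchoring-filament protein ladinin 1, had 9102 and 10194 normalized counts at 240 min and 5925 and 6406 at 0 min in scramble cells, against 1091 and 865 at 0 min in shLAD1 cells. Summed over 5 epithelial markers, the libraries had 77389 to 81123 normalized counts at 240 min and 53595 to 54179 at 0 min, and over 6 basal markers 84712 to 97133 at 240 min and 54458 to 61440 at 0 min. KRT5, KRT17 and CDH3 carried most of the basal sum, and TP63, a defining basal factor, had 24.8 and 34.5 at 240 min and 15.5 and 15.4 at 0 min, near the level of ESR1. ESR1 and PGR, the steroid receptors that a triple-negative line lacks, reached at most 29 counts together. Of the leukocyte markers, PTPRC and CD3E were at most 2.25, and CD14 had 1038 and 1354 at 240 min and 942 and 1187 at 0 min without passing the test. Of 5 fibroblast markers COL3A1, LUM and DCN were at 0, and the sum ran from 243 to 259 at 240 min and from 259 to 286 at 0 min, nearly all of it COL1A1. The 3 endothelial markers summed to 10.1 to 16.7 at 240 min and 13.4 to 17.6 at 0 min.

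Of all genes tested 81.8% changed in the same direction in both pairs. All 2813 called genes did so, which the test itself favours with 2 libraries a group. The libraries numbered 1 and 2 differed from each other. Of 11201 genes with a mean of at least 50, 32 were over 4-fold higher in number 1 than in number 2 at both times and 0 were over 4-fold lower. They include the collagen genes COL5A1, COL12A1 and COL4A2, and THBS1, the secreted adhesion protein thrombospondin 1. THBS1 had 3172 and 316 normalized counts at 240 min, against 1125 and 97.7 at 0 min. It was higher at 240 min within each pair, but the groups overlapped and it did not pass the test (adjusted p = 0.519, and 0.27 with the replicate block). Over the rest of the text, values are given for number 1 and then number 2, and n is 2 libraries a group. Log2 changes are 240 min minus 0 min with their standard error. That error and the test use a variance shared by all 12 libraries, so they also take in differences between the shLAD1 libraries. KIT, for example, had 176 and 67.2 counts at 0 min in shLAD1 cells.

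**Figure D2:**
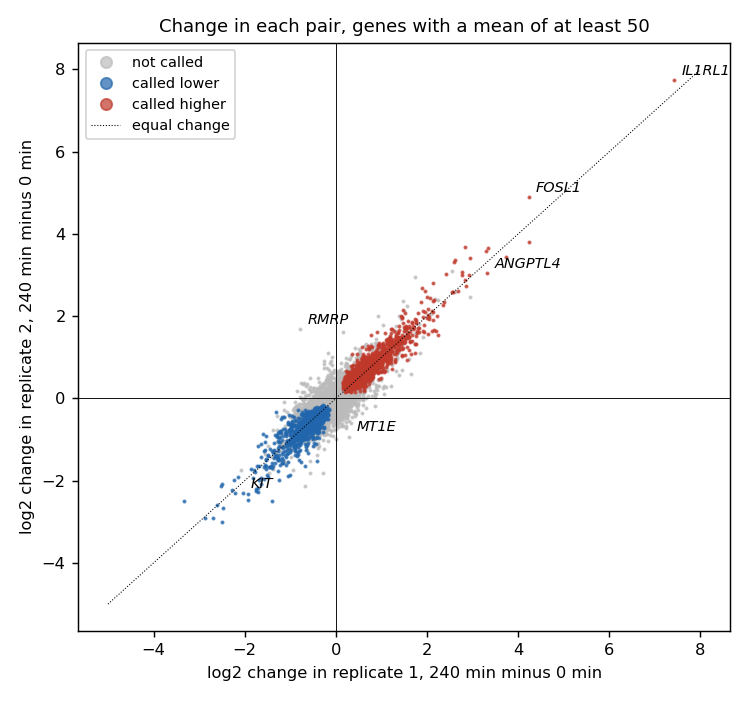
The log2 change (240 min minus 0 min) in the pair numbered 2 is plotted against that in the pair numbered 1 for the 11201 genes with a mean of at least 50 normalized counts. All red (called higher) and blue (called lower) points lie in the quadrants of equal sign, and RMRP lies on opposite sides of 0.

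The largest rises included genes for receptors, secreted factors, phosphatases and enzymes. The 12 described here are the largest called rises with a mean of at least 50 counts, groups that do not overlap and pairs that agree in direction. Their size, their separation and the agreement of their pairs are thus part of how they were chosen. Over all genes tested, the groups did not overlap in 63.9%, a share that stands beside every later remark of this kind. IL1RL1 encodes ST2, the receptor of interleukin 33. It had 171 and 212 normalized counts at 240 min and none in either library at 0 min. Against a floor of 3 reads a library, it was at least 61.8-fold higher at 240 min (adjusted p = 0.000483). FOSL1 encodes the AP-1 subunit FRA-1 and had 2761 and 2497 counts at 240 min, against 146 and 83.3 at 0 min (log2 change 4.56 ± 0.30, adjusted p = 0.0001). Both libraries at 240 min were more than 10 times above both at 0 min. DHRS9, a short-chain dehydrogenase that acts on retinoids, had 427 and 359.6 counts at 240 min and 21.7 and 24.7 at 0 min (4.02 ± 0.22, adjusted p = 2.32e-05). TNS4, a tensin of focal adhesions also called CTEN, had 491 and 568 at 240 min and 47.6 and 44.2 at 0 min (3.50 ± 0.19, adjusted p = 2.32e-05).

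IL6R, the binding subunit of the interleukin 6 receptor, had 261 and 247 counts at 240 min and 25.9 and 19.5 at 0 min (3.44 ± 0.25). DUSP6 and DUSP4 encode phosphatases that inactivate ERK. DUSP6 had 383 and 354 at 240 min and 27.9 and 31.9 at 0 min (3.58 ± 0.40), and DUSP4 had 285 and 254 at 240 min and 45.5 and 23.6 at 0 min (2.99 ± 0.41). Each of these genes was several-fold higher in both pairs, where the rule itself had required a rise in each. AGPAT9, a glycerol-3-phosphate acyltransferase of triacylglycerol synthesis, had 302 and 263 at 240 min and 38.3 and 23.6 at 0 min (3.18 ± 0.39). ANGPTL4, a secreted inhibitor of lipoprotein lipase, had 651 and 278 at 240 min and 64.2 and 32.9 at 0 min (3.18 ± 0.63, adjusted p = 0.00911). The number 1 library of ANGPTL4 was the higher of the pair at both times, and the rise was of like size in each pair. PAPPA, a secreted protease that cuts a binding protein of insulin-like growth factor, had 552 and 606 at 240 min and 90.1 and 59.6 at 0 min (2.96 ± 0.30). CCNA1, the germline and cancer-associated cyclin A1, had 479.5 and 579 at 240 min and 62.1 and 70.9 at 0 min (2.97 ± 0.32). CREB5, a leucine zipper transcription factor, had 168 and 131 at 240 min and 22.8 and 9.25 at 0 min (3.26 ± 0.41).

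**Figure D3:**
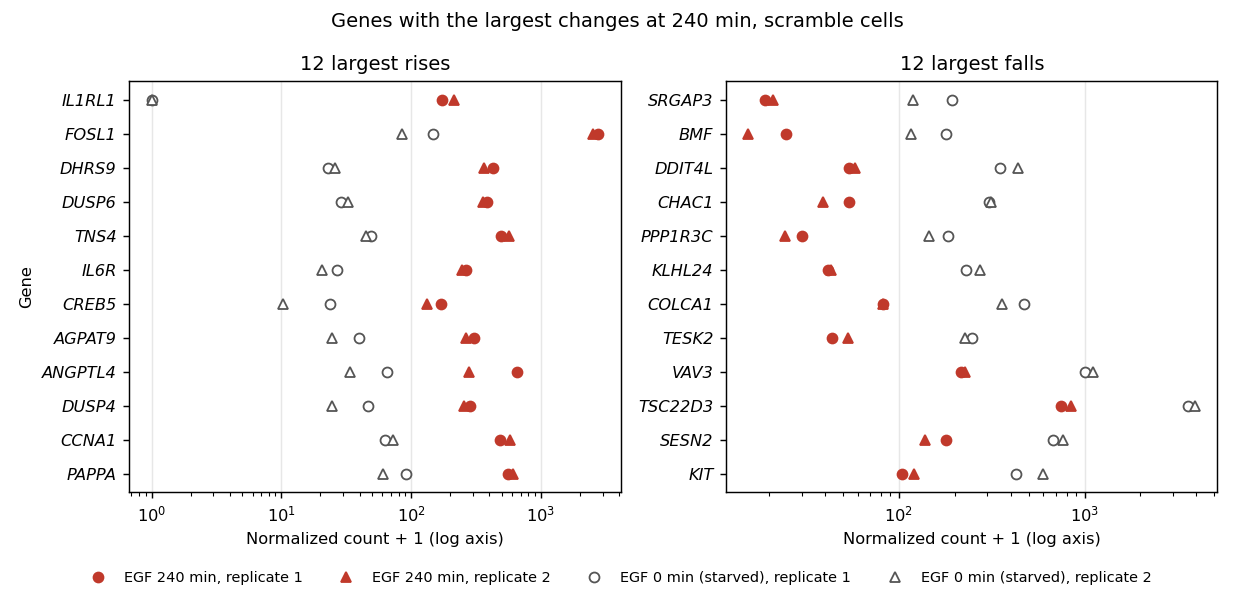
Normalized counts + 1 (log axis) in the libraries at 240 min (red) and at 0 min (grey, open) are shown for the 12 largest rises (left) and the 12 largest falls (right), with circles for replicate 1 and triangles for replicate 2. By the rule of choice, the red points of every row lie on one side of the open points. They lie at 171 and 212 counts against 0 for IL1RL1 and at 104 and 119 against 425 and 593 for KIT.

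The largest falls, chosen by the same rule, included genes for inhibitors of growth signalling, a receptor tyrosine kinase and regulators of small GTPases. TSC22D3 encodes GILZ, a glucocorticoid-inducible leucine zipper protein. It had 749.7 and 847 counts at 240 min and 3618 and 3938 at 0 min (-2.24 ± 0.13, adjusted p = 2.53e-05). SESN2 and DDIT4L encode inhibitors of the growth kinase complex mTORC1. SESN2 had 178 and 138 at 240 min and 676 and 764 at 0 min (-2.19 ± 0.16), and DDIT4L had 52.9 and 56.8 at 240 min and 349 and 435 at 0 min (-2.81 ± 0.26). In all 3 genes both libraries at 240 min stood below both at 0 min, which the rule had required. VAV3, an exchange factor of small GTPases, had 214 and 225 at 240 min and 1002 and 1103 at 0 min (-2.26 ± 0.20, adjusted p = 0.000219). KIT, the receptor of stem cell factor, had 104 and 119 at 240 min and 425 and 593 at 0 min (-2.17 ± 0.63, adjusted p = 0.0448). CHAC1, an enzyme that breaks down glutathione, had 52.9 and 37.9 at 240 min and 303 and 312 at 0 min (-2.75 ± 0.21). KLHL24, a substrate adaptor of a ubiquitin ligase, had 40.5 and 42.3 at 240 min and 229.8 and 271 at 0 min (-2.56 ± 0.18). The same rule named SRGAP3 (a GTPase activator of Rac), BMF (a pro-apoptotic BH3-only protein), PPP1R3C (a glycogen-targeting phosphatase subunit), COLCA1 and TESK2 (a kinase of cofilin), with log2 changes from -2.92 in SRGAP3 to -2.29 in TESK2.

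In shLAD1 cells, whose libraries are separate, 2585 genes (18.5%) were called between 240 and 0 min, 1502 higher (10.8%) and 1083 lower (7.76%). Of the 24 genes named for their size, 23 were called in the same direction in shLAD1 cells by the fit of all 12 libraries. In all 24 both shLAD1 pairs moved that way, and the share of all genes that did so was not counted. IL1RL1 had 298 and 888 normalized counts at 240 min and 5.13 and 12.2 at 0 min in shLAD1 cells. The difference of the response between shLAD1 and scramble cells, tested as an interaction, was called in 0 of the 13950 genes by limma, with 133 at an unadjusted p under 0.05. edgeR called 0 (135 unadjusted) and DESeq2 called 0 (45 unadjusted), and 27 genes were called with the replicate block within each shRNA. Of the 24 genes, 5 were among the 133 of limma: TNS4, IL6R, CHAC1, SESN2 and TSC22D3. Each changed less in shLAD1 cells, and the 24 were chosen by their size in scramble cells.

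The largest gains in normalized counts included cytoskeletal and keratin transcripts. Gains in counts also depend on transcript length, so they say where the reads went and not which gene made more molecules. ACTB, cytoplasmic beta-actin, had 128085 and 131797 normalized counts at 240 min and 84148 and 77556 at 0 min (0.69 ± 0.10, adjusted p = 0.00152). ACTG1 had 36673 and 44339.7 at 240 min and 14324 and 14824 at 0 min (1.47 ± 0.18, adjusted p = 0.000878). Actin transcripts resemble each other and have many pseudogenes, and how reads that fit several genes were counted is not given in the sources used here. KRT17, a keratin of stressed and wounded epidermis, had 18399.6 and 18983 at 240 min and 4414 and 3494 at 0 min (2.25 ± 0.50, adjusted p = 0.0153). All 3 had both libraries at 240 min above both at 0 min. PLEC, the linker plectin, had 30370.3 and 29562 at 240 min and 13435 and 10845 at 0 min (1.31 ± 0.13), and FLNA, the actin cross-linker filamin A, had 40594 and 35046 at 240 min and 26581 and 19179.7 at 0 min (0.74 ± 0.19).

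The largest losses in counts were smaller. TNFAIP2 had 2818 and 2904 normalized counts at 240 min and 5885 and 7417 at 0 min (-1.21 ± 0.14), and TNFSF10, the death ligand TRAIL, had 851 and 831 at 240 min and 2873 and 3851 at 0 min (-1.98 ± 0.22, adjusted p = 0.000653). The linker histone gene H1FX had 5272 and 4527 at 240 min and 7675 and 7836 at 0 min (-0.67 ± 0.16). AARS, alanyl-tRNA synthetase, had 5278 and 5697 at 240 min and 7831 and 8766 at 0 min (-0.60 ± 0.09). None of these genes overlapped between the groups.

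Genes were next grouped into 48 lists by role, with members and lists chosen when earlier results of these data were known. The shares thus describe the lists and are no independent test. Each list's share of called members was set beside the 11.7% higher and 8.44% lower of all genes tested, whose median change was -0.02. With any 1 of the 4 libraries left out, 835 to 1063 of all genes were called higher and 423 to 637 lower. Counts that moved by over 1.5 times in a direction follow a list's count in brackets, for a library left out, the replicate block and total-count scaling. The brackets leave out the block within each shRNA, where counts of most lists were larger. In that fit 25.3% of all genes were called higher and 22.9% lower. It called 33 actin regulators higher and 1 lower, 41 mitosis genes lower, and 15 cornified envelope genes higher and 2 lower. That fit also called 13 of 19 integrated stress genes lower and 3 higher. Of 36 interferon-stimulated genes it called 13 lower and 4 higher, and of 28 cholesterol genes 10 lower and 5 higher. Among EGFR ligands, 4 of 8 tested were called higher and none lower (5 higher and 1 lower with the replicate block). HBEGF had 213 and 158 counts at 240 min and 44.5 and 53.5 at 0 min (1.89 ± 0.21, adjusted p = 0.000491). EREG, epiregulin, had 104 and 128 at 240 min and 22.8 and 17.5 at 0 min (2.47 ± 0.36). TGFA changed by 0.81 ± 0.08, and AREG, amphiregulin, had only 36 and 43.4 counts at 240 min and 4.14 and 2.06 at 0 min. Of the 3 ERBB receptors tested, 2 were called lower and none higher (1 higher and 2 lower with the replicate block). ERBB2 had 1619.9 and 1519.7 at 240 min and 2353 and 2329.9 at 0 min (-0.58 ± 0.07, adjusted p = 0.000706), and ERBB3 had 1604 and 1711 at 240 min and 2656 and 2935 at 0 min (-0.75 ± 0.12, adjusted p = 0.00272). EGFR itself had 4251 and 4662 at 240 min and 2792 and 3117 at 0 min (0.59 ± 0.20), with an adjusted p of 0.0663 without and 0.00245 with the replicate block. Both libraries of EGFR at 240 min were above both at 0 min.

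Feedback inhibitors of EGFR and ERK had 18 of 27 tested members called higher and 2 lower, with a median change of 1.03 (12 to 13 higher and 1 to 2 lower with any 1 library left out). DUSP7, a cytoplasmic ERK phosphatase, had 813 and 760.4 counts at 240 min and 184 and 200.5 at 0 min (2.03 ± 0.12, adjusted p = 3.43e-05). ERRFI1 encodes MIG6, which binds and inhibits the EGFR kinase, and had 3664 and 4121 at 240 min and 1280.5 and 1594 at 0 min (1.44 ± 0.13, adjusted p = 0.000221). DUSP14 changed by 1.34 ± 0.14 and DUSP2 by 2.01 ± 0.22. The members called lower were LRIG1, a membrane protein that promotes ERBB receptor degradation (-0.79 ± 0.13), and DUSP16, a phosphatase of the JNK and p38 kinases (-0.49 ± 0.09). DUSP1 did not pass the test (0.09 ± 0.33, adjusted p = 0.886).

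AP-1 and immediate early transcription factors had 10 of 26 tested members called higher and 2 lower (8 to 10 higher and 0 to 2 lower with any 1 library left out). Beside FOSL1, MAFF, a small Maf factor, had 395 and 266 counts at 240 min and 85.9 and 84.3 at 0 min (1.92 ± 0.17, adjusted p = 0.000219). MYC had 3188 and 3047 at 240 min and 1403 and 1568 at 0 min (1.07 ± 0.14, adjusted p = 0.000878), and KLF4 changed by 1.08 ± 0.10. ATF3, a stress-induced repressor, had 134 and 66.8 at 240 min and 321 and 265 at 0 min and was thus lower (-1.61 ± 0.39, adjusted p = 0.022). FOS (0.27 ± 0.12, adjusted p = 0.137) and EGR1 (0.63 ± 0.27, adjusted p = 0.152), the archetypal immediate early genes, did not pass the test. Of 23 ETS factors and ERK-induced factors, 9 were called higher and 2 lower (5 higher and 1 lower with any 1 library left out). ETS1 had 1900.2 and 1499.7 counts at 240 min and 553 and 499 at 0 min (1.68 ± 0.16), ETS2 changed by 1.42 ± 0.08 and ELK3 by 1.71 ± 0.21. The lower members were the epithelial ETS factors EHF, with 974 and 943 at 240 min and 2352 and 2292 at 0 min (-1.28 ± 0.12, adjusted p = 0.000233), and ELF3 (-0.47 ± 0.14, adjusted p = 0.0384).

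Several of these genes were at another level at 40 min. Values at 0, 40 and 240 min are given side by side, since 40 and 240 min are set against the same 0 min libraries. ATF3 had 321 and 265 counts at 0 min, 2515 and 1685 at 40 min and 134 and 66.8 at 240 min. HBEGF had 44.5 and 53.5 at 0 min, 323 and 354 at 40 min and 213 and 158 at 240 min, and EPHA2, a receptor of ephrin A ligands, had 1422 and 1364, 6582 and 7842 and 4371 and 4505 at those times. These 3 genes had their highest values at 40 min in both series of libraries. DHRS9 had 21.7 and 24.7 at 0 min, 29.3 and 28.4 at 40 min and 427 and 359.6 at 240 min, and IL6R had 25.9 and 19.5, 30.1 and 20.9 and 261 and 247. NDRG1, a stress- and hypoxia-responsive gene, had 755 and 1119 at 0 min, 784 and 888 at 40 min and 3530.2 and 4469 at 240 min. In these 3 genes the values at 0 and 40 min lay close together and those at 240 min stood apart. FOSL1 had 1213 and 1177 at 40 min, between its levels at 0 and 240 min. Among the genes that were lower at 240 min, HERPUD1, of the endoplasmic reticulum's degradation machinery, had 1147 and 1223 at 0 min, 1641 and 1636 at 40 min and 457 and 414 at 240 min, and TXNIP had 1306 and 1320.2, 992 and 889 and 340.0 and 263.

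**Figure D4:**
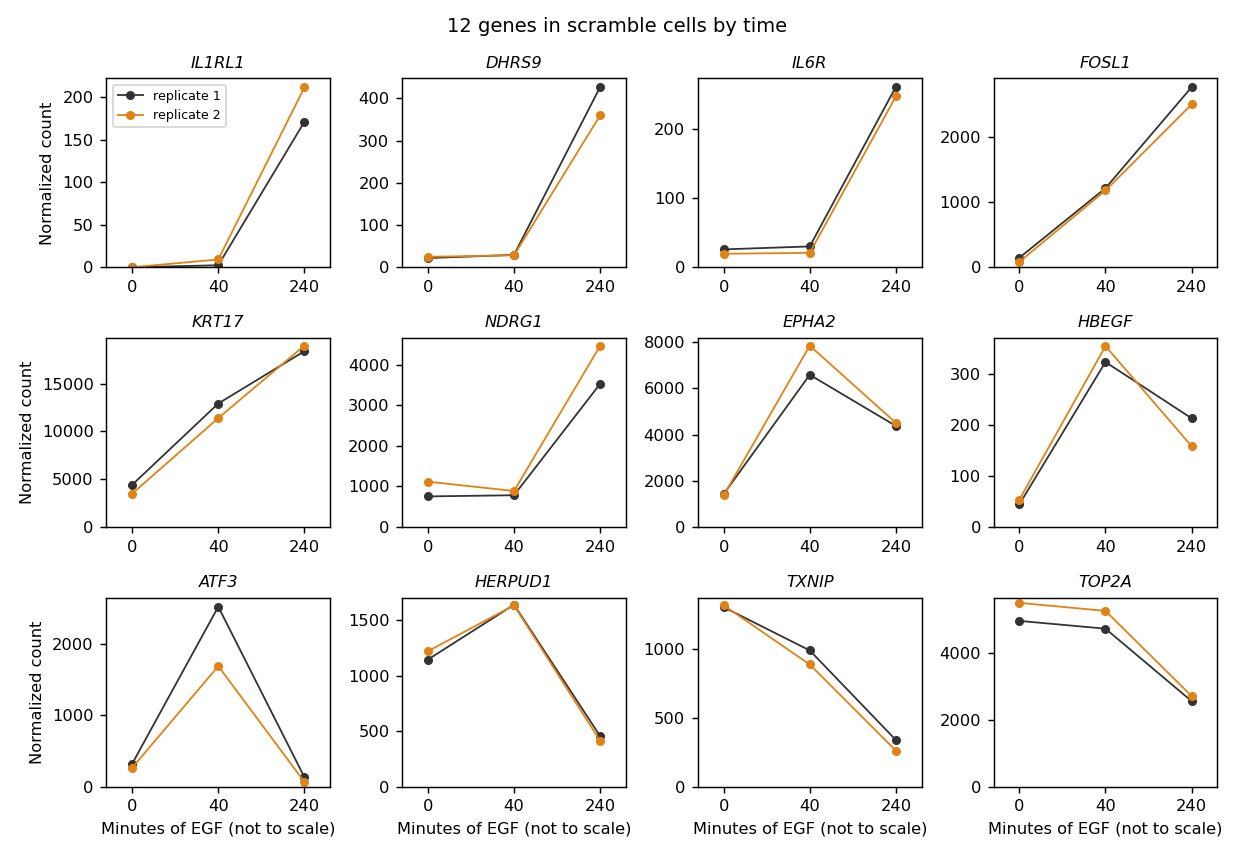
Normalized counts of 12 genes in scramble cells are plotted at 0, 40 and 240 min of EGF (time axis not to scale), with replicate 1 in black and replicate 2 in orange. IL1RL1, DHRS9 and IL6R lie near their 0 min level at 40 min and high at 240 min, and ATF3, HBEGF and EPHA2 peak at 40 min.

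Actin regulators had 20 of 37 tested members called higher and none lower, with a median change of 0.46. The count was 12 without the number 2 library at 0 min, 13 without either library at 240 min and 15 without the number 1 library at 0 min. VCL, the adhesion linker vinculin, had 6280.3 and 6449.7 counts at 240 min and 2519.6 and 2253 at 0 min (1.42 ± 0.10, adjusted p = 9.64e-05). TPM4, a tropomyosin, had 10113 and 10102 at 240 min and 4202 and 3681 at 0 min (1.36 ± 0.12, adjusted p = 0.000163). DIAPH1, a formin that nucleates actin filaments, changed by 0.65 ± 0.07 and ACTR3, of the Arp2/3 complex, by 0.57 ± 0.06. CArG boxes were in 5 of 50 RefSeq promoter windows of the list (10%), against 1.29% of all 35116 windows. They were in 1.16% of the windows of all genes tested and 1.99% of those of all genes called higher. Among YAP and SRF targets, 6 of 20 were called higher and 1 lower (4 to 6 higher and 0 lower with any 1 library left out; 8 higher and 2 lower with the replicate block). The fall was in NUAK2, at 2.25 and 2.23 counts at 240 min and 10.4 and 10.3 at 0 min. SRF itself changed by 0.90 ± 0.12, and FHL2, a LIM-domain cofactor, by 1.72 ± 0.13 (adjusted p = 0.000125). F3, tissue factor, had 3558 and 1608 at 240 min and 491 and 242 at 0 min (2.79 ± 0.50, adjusted p = 0.00625).

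Integrins and focal adhesion genes had 14 of 23 members called higher and 1 lower. The count higher was 8 without the number 2 library at 0 min or the number 1 library at 240 min, 9 without the number 2 library at 240 min and 10 without the number 1 library at 0 min. ITGA2, which pairs with beta 1 as a collagen receptor, had 4905 and 4877 counts at 240 min and 1307 and 1555 at 0 min (1.78 ± 0.10, adjusted p = 2.32e-05). ITGA3, a laminin receptor subunit, had 4827 and 5452 at 240 min and 2101 and 2027 at 0 min (1.31 ± 0.11), and ITGB6, of a receptor that activates TGF-beta, changed by 0.93 ± 0.11. The member called lower was TNS3, with 1502 and 1629 at 240 min and 2409 and 2329.9 at 0 min (-0.60 ± 0.09, adjusted p = 0.00154), while its relative TNS4 was among the largest rises. Hemidesmosome and laminin-332 genes, which anchor basal cells to the basement membrane, had 7 of 11 called higher and none lower (4 to 5 higher with a library left out, moved over 1.5 times without number 2 at 240 min). ITGA6 had 2678 and 2870.2 at 240 min and 965 and 804 at 0 min (1.65 ± 0.20, adjusted p = 0.000853), LAMB3 changed by 0.85 ± 0.11, and LAD1, a member of the list, by 0.64 ± 0.13 (adjusted p = 0.00987).

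Desmosome and cell-cell junction genes had 14 of 24 called higher and none lower (7 to 9 higher with any 1 library left out). PKP2, the desmosomal plaque protein plakophilin 2, had 1343 and 1535 counts at 240 min and 457 and 467 at 0 min (1.64 ± 0.11, adjusted p = 6.94e-05). CDH1, E-cadherin, had 13392 and 13776 at 240 min and 9856 and 9476 at 0 min (0.49 ± 0.08), and PKP1 changed by 0.74 ± 0.11. Secreted and surface proteases with their activators and inhibitors had 7 of 23 called higher and none lower (7 higher and 2 lower with the replicate block; 7 higher and 1 lower with total-count scaling). SERPINB5, maspin, had 3642 and 3753 at 240 min and 1195 and 1341 at 0 min (1.55 ± 0.21), and PLAUR, the receptor of urokinase, had 1635 and 1425 at 240 min and 512 and 397 at 0 min (1.76 ± 0.25). CD44, the hyaluronan receptor, changed by 1.01 ± 0.07 (adjusted p = 8.9e-05). Of the Eph group, EPHA2 had 4371 and 4505 at 240 min and 1422 and 1364 at 0 min (1.67 ± 0.13), the ephrin B genes EFNB1 and EFNB2 rose, EFNB1 by 0.47 ± 0.11 and EFNB2 to 1524 and 1622 at 240 min, against 558 and 556 at 0 min, and the ephrin A genes EFNA3 (-0.70 ± 0.15) and EFNA4 (-0.83 ± 0.11) were lower. These were the 3 higher and 2 lower of 13 tested (2 higher and 1 to 2 lower with any 1 library left out; 5 higher and 3 lower with the replicate block).

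Markers of basal epithelium had 8 of 18 called higher and none lower (2 to 4 higher with any 1 library left out; 5 higher with total-count scaling). Markers of luminal epithelium had 2 of 18 called higher and 5 lower (1 to 2 higher and 3 to 4 lower with a library left out, moved over 1.5 times without number 1 at 0 min, number 1 at 240 min and number 2 at 240 min; 4 higher and 5 lower with the replicate block). The 2 luminal rises were keratins, KRT19 with 41294 and 46364 counts at 240 min and 28877 and 30767 at 0 min (0.55 ± 0.08) and KRT7 (0.47 ± 0.09). The 5 falls were of ERBB3 and the transcription factor genes EHF, ELF3, XBP1 (-0.53 ± 0.09) and GATA3, which had 1198 and 1225 at 240 min and 1531 and 1445 at 0 min (-0.30 ± 0.06, adjusted p = 0.0113). Of 26 keratin genes tested 5 were called higher, KRT17, KRT6B, KRT7, KRT19 and KRT75 (2 higher with any 1 library left out; 11 higher with the replicate block). KRT6B had 7889 and 9288 at 240 min and 3952 and 4815 at 0 min (0.97 ± 0.25, adjusted p = 0.0252). KRT14 did not pass the test, at 982 and 1151 at 240 min and 969 and 1204 at 0 min. The keratin genes include near-identical copies and pseudogenes, so their counts are uncertain in the same way as those of the actins. IVL, involucrin of the cornified envelope, had 1049 and 1280.4 at 240 min and 475 and 477 at 0 min (1.28 ± 0.16, adjusted p = 0.000921), and was called higher in that list beside KRT6B and PPL, 3 of 29 (1 to 3 higher with any 1 library left out; 6 higher and 2 lower with the replicate block; 3 higher and 2 lower with total-count scaling). Of 11 mesenchymal markers SNAI1 alone was called (0 higher with any 1 library left out; 3 higher with the replicate block; 0 higher with total-count scaling). It was higher (1.18 ± 0.36, adjusted p = 0.0481), at 170.0 and 119 counts at 240 min and 69.4 and 55.5 at 0 min.

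Ribosome biogenesis was the list with the highest share of called members, 37 of 44 (84.1%) higher and none lower, with a median change of 0.63. The count was 23 to 33 with any 1 library left out, lowest without the number 2 library at 240 min, and 33 with total-count scaling. WDR43, of the small-subunit processome, had 1586 and 1848 counts at 240 min and 776 and 767 at 0 min (1.15 ± 0.09, adjusted p = 0.000149). DDX21 had 4525 and 4520.2 at 240 min and 2119 and 2051 at 0 min (1.12 ± 0.09, adjusted p = 0.000128), NOP2 changed by 0.96 ± 0.10 and DKC1, dyskerin, by 0.66 ± 0.07. In these genes both libraries at 240 min were above both at 0 min. The E-box CACGTG was in 18 of 44 promoter windows of the list (40.9%), against 7.26% of all 35116 windows. It was in 9.22% of the windows of all genes tested and 10.6% of those of all genes called higher. Windows ran from 250 bases before to 50 after the start, both strands were searched, and 36 of the 44 genes had one. Of 25 subunits of RNA polymerases I and III, 11 were called higher and none lower (6 to 8 higher with a library left out, moved over 1.5 times without number 2 at 0 min, number 1 at 240 min and number 2 at 240 min; 13 higher and 1 lower with the replicate block; 8 higher and 2 lower with total-count scaling). POLR1B had 589 and 707 counts at 240 min and 292 and 342 at 0 min (1.03 ± 0.13), and POLR1E changed by 0.86 ± 0.07. The ribosomal proteins themselves moved little, with 2 of 77 cytosolic genes called higher (RPL36A and RPL24), none lower and a median change of 0.02 (0 to 1 higher with any 1 library left out; 1 higher and 1 lower with total-count scaling).

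Other lists of protein and RNA production differed. Cytosolic aminoacyl-tRNA synthetases had 2 of 20 called higher and 2 lower, with a median change of 0.01 (1 to 2 higher and 1 lower with any 1 library left out; 2 higher and 4 lower with total-count scaling). Translation factors had 12 of 34 called higher and none lower (5 to 9 higher with a library left out, moved over 1.5 times without number 1 at 0 min, number 2 at 0 min and number 2 at 240 min). EIF3J had 1911 and 2106 counts at 240 min and 1182 and 1246 at 0 min (0.72 ± 0.08), and EIF2S1 changed by 0.68 ± 0.08. Cytosolic chaperones had 14 of 29 called higher and 3 lower (5 to 7 higher and 1 to 2 lower with any 1 library left out; 5 higher and 3 lower with total-count scaling). HSPA8, the constitutive HSC70, had 24674 and 24029.7 at 240 min and 15868 and 14789 at 0 min (0.67 ± 0.07, adjusted p = 0.000313), and CCT6A, a subunit of the chaperonin that folds actin and tubulin, changed by 0.47 ± 0.07. The members called lower were the heat-inducible pair HSPA1A (-0.38 ± 0.08) and HSPA1B (-0.76 ± 0.11), whose near-identical sequences make their separate counts uncertain, and DNAJB4 (-0.83 ± 0.21). Nuclear pore and transport genes had 12 of 41 called higher and 2 lower (3 to 8 higher and 0 lower with a library left out, moved over 1.5 times without number 1 at 0 min, number 2 at 0 min and number 2 at 240 min; 16 higher and 4 lower with the replicate block; 6 higher and 5 lower with total-count scaling). The importin gene KPNA4 changed by 0.78 ± 0.07, and the main exportin gene, XPO1, was lower (-0.32 ± 0.08, adjusted p = 0.0253). Splicing factors had 6 of 31 called higher and none lower (2 to 4 higher with a library left out, moved over 1.5 times without number 1 at 0 min, number 2 at 0 min and number 2 at 240 min; 12 higher with the replicate block; 2 higher and 3 lower with total-count scaling).

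In metabolism, glycolysis and glucose uptake genes had 10 of 26 called higher and none lower (4 to 6 higher with any 1 library left out; 14 higher and 1 lower with the replicate block; 5 higher with total-count scaling). HK2, the hexokinase of growing tissues, had 1174 and 1342 counts at 240 min and 416 and 404 at 0 min (1.61 ± 0.09, adjusted p = 2.32e-05). The glucose transporter gene SLC2A1 had 5204 and 5828 at 240 min and 3006 and 2439.9 at 0 min (1.02 ± 0.15), and LDHA changed by 0.52 ± 0.06. Among 32 nucleotide and one-carbon genes, 8 were called higher and 3 lower (5 to 7 higher and 2 to 3 lower with a library left out, moved over 1.5 times without number 2 at 0 min and number 2 at 240 min; 5 higher and 3 lower with total-count scaling). The rises included PPAT, which starts purine synthesis (0.84 ± 0.11), and AMD1 and SRM of polyamine synthesis (0.89 ± 0.09 and 0.65 ± 0.09), and the falls were the serine and folate genes PSPH (-0.86 ± 0.18), PSAT1 (-0.39 ± 0.07) and ALDH1L2 (-0.59 ± 0.10). Of 21 hypoxia-type targets 3 were called higher and 1 lower (1 to 2 higher and 0 lower with any 1 library left out; 5 higher and 1 lower with the replicate block). NDRG1 changed by 2.11 ± 0.25, and the fall was in DDIT4, an mTORC1 inhibitor (-1.41 ± 0.42, adjusted p = 0.0473). Of 28 cholesterol genes 1 was called higher and 1 lower, LSS, lanosterol synthase, at -0.52 ± 0.13 (1 higher and 0 to 1 lower with any 1 library left out; 2 higher and 6 lower with the replicate block; 1 higher and 2 lower with total-count scaling).

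FOXO-type and starvation genes had 20 of 38 tested members (52.6%) called lower and 3 higher, with a median change of -0.56. With any 1 library left out, 13 to 17 were called lower and 1 or 2 higher, with 13 lower without the number 2 library at 0 min or at 240 min. TXNIP had 340.0 and 263 counts at 240 min and 1306 and 1320.2 at 0 min (-2.13 ± 0.13, adjusted p = 3.43e-05), and CCNG2, an atypical cyclin of growth arrest, had 151 and 165 at 240 min and 454 and 649 at 0 min (-1.78 ± 0.19, adjusted p = 0.000483). TSC22D3, KLHL24 and DDIT4L of this list were among the largest falls. The 3 members called higher were GADD45A, a stress-response gene (1.42 ± 0.26), TP53INP2 (0.70 ± 0.19) and FOXO3 itself (0.37 ± 0.09). The forkhead motif TGTTTAC was in 10 of 56 promoter windows of the list (17.9%), against 3.42% of all 35116 windows. It was in 2.63% of the windows of all genes tested and 3.51% of those of all genes called lower. Members were picked as FOXO-type genes and counted whether called or not, so this share describes the list and not the response. Autophagy and lysosome genes had 7 of 36 called lower and 1 higher (1 higher and 1 to 3 lower with any 1 library left out; 2 higher and 12 lower with the replicate block; 1 higher and 11 lower with total-count scaling). ULK1, the kinase that starts autophagy, had 393 and 347 at 240 min and 729.8 and 823 at 0 min (-1.07 ± 0.21, adjusted p = 0.00813), WIPI2 changed by -0.44 ± 0.08, and ATG16L1 was the member called higher (1.03 ± 0.12, adjusted p = 0.000544).

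Mitosis and G2/M genes had 26 of 42 members (61.9%) called lower and none higher, with a median change of -0.45. With any 1 library left out, 17 or 18 were called lower, with 17 without the number 2 library at 0 min. TOP2A, topoisomerase II alpha, had 2559 and 2709 counts at 240 min and 4954 and 5493 at 0 min (-0.99 ± 0.10, adjusted p = 0.000421). NDC80, of the outer kinetochore, had 638 and 519.9 at 240 min and 1215 and 1174 at 0 min (-1.05 ± 0.10, adjusted p = 0.000265). KIF2C changed by -0.64 ± 0.07, CCNA2 by -0.59 ± 0.07, and BUB1B and CCNB2, whose promoters are shown above, by -0.80 ± 0.10 and -0.53 ± 0.15. CDK1 (-0.20 ± 0.18, adjusted p = 0.475) did not pass the test. The motif TTTGAA was in 27 of 46 promoter windows of the list (58.7%), against 15.2% of all 35116 windows, and CCAAT in 34 of 46 (73.9%), against 34.6%. Among windows of all genes tested, 10.59% held TTTGAA and 34.52% CCAAT. Among those of all genes called lower, 15.35% held TTTGAA and 43.01% CCAAT. A CArG box that starts with CCAAT counts under both motifs. G1/S and replication genes had 7 of 36 called lower and none higher (2 to 7 lower with a library left out, moved over 1.5 times without number 1 at 0 min, number 2 at 0 min and number 2 at 240 min; 14 lower with the replicate block; 16 lower with total-count scaling). ORC1, of the origin recognition complex, had 423 and 444 at 240 min and 621 and 677 at 0 min (-0.58 ± 0.08, adjusted p = 0.000979).

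Among G1 cyclins and inhibitors of cyclin-dependent kinases, 2 of 20 were called higher and 3 lower (4 higher and 5 lower with the replicate block; 2 higher and 6 lower with total-count scaling). CDKN1A encodes p21 and had 4252 and 3956 counts at 240 min and 1088 and 917 at 0 min (2.04 ± 0.25, adjusted p = 0.00109). CCND1, cyclin D1, had 4066 and 4550.3 at 240 min and 1483 and 1768 at 0 min (1.41 ± 0.53) and did not pass the test (adjusted p = 0.105, and 0.0231 with the replicate block). CDKN1B, p27, had 739.6 and 916 at 240 min and 1082 and 1232 at 0 min (-0.49 ± 0.15, adjusted p = 0.0461), and CDKN2C, p18, had 1157 and 1161 at 240 min and 2740.1 and 3034 at 0 min (-1.31 ± 0.14, adjusted p = 0.000483). Of 23 p53 targets 6 were called higher and 7 lower (5 to 6 higher and 2 to 5 lower with a library left out, moved over 1.5 times without number 1 at 0 min, number 2 at 0 min and number 2 at 240 min). AEN, an apoptosis-enhancing nuclease, had 772 and 834 at 240 min and 174 and 158 at 0 min (2.27 ± 0.11, adjusted p = 1.9e-05) and PLK3 changed by 2.02 ± 0.18, while BTG2 (-1.62 ± 0.34) and DDB2 (-0.67 ± 0.14) were lower.

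The BCL2 family, which sets the threshold for mitochondrial cell death, had 3 of 20 members called higher and 4 lower (0 to 1 higher and 1 to 2 lower with any 1 library left out; 5 higher and 4 lower with the replicate block). Those called lower were the pro-apoptotic BMF, with 23.6 and 14.5 counts at 240 min and 178 and 115 at 0 min (-2.88 ± 0.38, adjusted p = 0.00102), BCL2L11, which encodes BIM, with 401 and 419.7 at 240 min and 660.4 and 741 at 0 min (-0.77 ± 0.17), BBC3, which encodes PUMA (-1.16 ± 0.27), and the anti-apoptotic BCL2 (-1.15 ± 0.29). Those called higher were the anti-apoptotic BCL2L1, with 1047 and 964 at 240 min and 695 and 673 at 0 min (0.55 ± 0.12, adjusted p = 0.0124), and the pro-apoptotic BOK (0.70 ± 0.17) and PMAIP1 (0.36 ± 0.10). Integrated stress genes controlled by ATF4 had 4 of 19 called lower and 1 higher (0 to 2 higher and 3 to 4 lower with any 1 library left out; 3 higher and 8 lower with the replicate block; 1 higher and 7 lower with total-count scaling). Beside CHAC1 and SESN2, DDIT3, the stress factor CHOP, had 69.8 and 72.4 at 240 min and 148 and 150.1 at 0 min (-1.06 ± 0.17), and PPP1R15A, which restores translation after stress, was higher (0.68 ± 0.13). Of the unfolded protein response, 4 of 23 were called lower and 1 higher (0 higher and 2 to 3 lower with a library left out, moved over 1.5 times without number 1 at 0 min, number 2 at 0 min and number 1 at 240 min; 3 higher and 5 lower with the replicate block; 0 higher and 5 lower with total-count scaling). HERPUD1 had the largest of these falls (-1.44 ± 0.12, adjusted p = 0.00015).

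Cytokines, chemokines and their receptors had 11 of 30 tested members called higher and 1 lower, TNFSF10 (7 to 10 higher and 1 lower with a library left out, moved over 1.5 times without number 2 at 0 min and number 1 at 240 min; 14 higher and 2 lower with the replicate block; 10 higher and 3 lower with total-count scaling). CXCL1, a neutrophil chemokine, had 943 and 975 counts at 240 min and 132 and 131 at 0 min (2.86 ± 0.24, adjusted p = 0.000173). IL4R had 2457 and 2698 at 240 min and 908 and 1066 at 0 min (1.39 ± 0.13, adjusted p = 0.000233), and IL18 had 579 and 605 at 240 min and 215 and 227 at 0 min (1.41 ± 0.12). In all 3 both libraries at 240 min were above both at 0 min. NF-kB subunits and targets had 7 of 24 called higher and 1 lower (12 higher and 4 lower with the replicate block; 5 higher and 2 lower with total-count scaling). RELB had 686 and 661 counts at 240 min and 202 and 263 at 0 min (1.54 ± 0.26). Interferon-stimulated genes had 1 of 36 called higher, ISG20 (1.14 ± 0.15), and 2 lower, STAT2 (-0.82 ± 0.14) and IFI44 (-0.63 ± 0.17). These counts moved under other settings (1 higher and 1 to 5 lower with any 1 library left out; 3 higher and 8 lower with the replicate block).

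The circadian clock list moved in both directions, with 6 of 19 members called higher and 5 lower (4 to 5 higher and 2 to 3 lower with any 1 library left out). Those higher included the activators NPAS2, with 971 and 1168 counts at 240 min and 327 and 381 at 0 min (1.59 ± 0.20, adjusted p = 0.000889), ARNTL2 (1.62 ± 0.23) and ARNTL (0.74 ± 0.13), and the repressor CRY1, with 839.8 and 831 at 240 min and 375 and 391 at 0 min (1.12 ± 0.14, adjusted p = 0.000897). Those lower included the output factors DBP, with 159.8 and 148 at 240 min and 439.9 and 469.9 at 0 min (-1.56 ± 0.12, adjusted p = 0.000128), and TEF (-0.72 ± 0.18), and the repressor PER1, with 60.8 and 71.3 at 240 min and 179 and 135 at 0 min (-1.23 ± 0.18, adjusted p = 0.00189). PER2 did not pass the test (-0.09 ± 0.23, adjusted p = 0.829). TGF-beta, BMP and ID genes had 5 of 31 called higher and 2 lower (1 to 5 higher and 0 to 1 lower with a library left out, moved over 1.5 times without number 2 at 0 min, number 1 at 240 min and number 2 at 240 min; 8 higher and 3 lower with the replicate block). SMAD3, which carries the TGF-beta signal, had 4300.2 and 4535 at 240 min and 1673 and 1801 at 0 min (1.35 ± 0.29, adjusted p = 0.0135), SMAD1, which carries the BMP signal, changed by -0.53 ± 0.11, and ID1 (0.99 ± 0.21) and ID3 (-0.76 ± 0.22) changed in opposite directions.

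**Figure D5:**
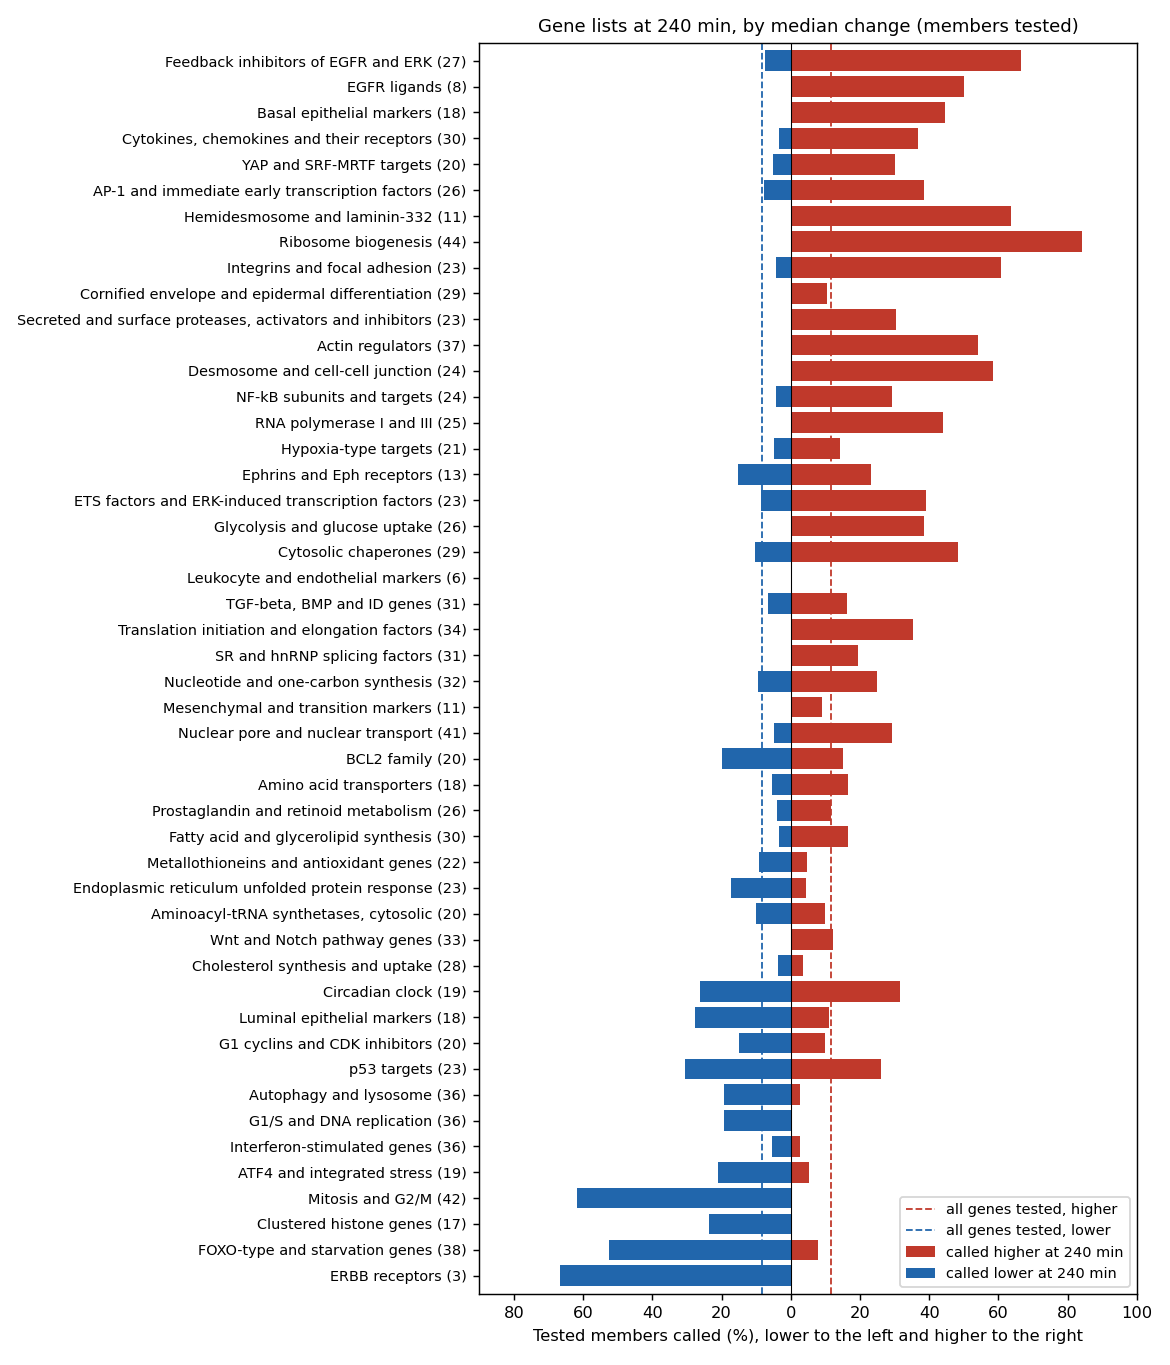
For each of the 48 lists, the bars give the percentage of tested members called higher (red, right) and lower (blue, left) at 240 min, with dashed lines at the 11.7% and 8.44% of all genes tested and the number of members tested in brackets. Ribosome biogenesis reaches 84.1% higher, and mitosis and G2/M 61.9% lower, with no member called in the other direction.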

How the data were processed

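Poly-A selected RNA was made into TruSeq v2 libraries, per the labels' protocols, and the submitters' processing notes name STAR, DESeq2 and hg19. Tool versions, the counting tool and strand use are not given here. The authors deposited 1 table of 26365 genes whose signal columns hold normalized counts, each a read count over the library's size factor. Whole reads were recovered from them to within 0.001, and 20013 genes had at least 1 read. The authors' deposited log2 fold changes, p-values and Wald scores belong to a contrast that the headers do not name and were not used.

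The test was limma-trend with robust variances (limma 3.58.1, R 4.3.3) on log2(normalized count + 1), so that low genes' changes are understated. Means of the 6 groups were fitted over all 12 libraries. Tested were the 13950 genes that reached 10 normalized counts in 2 or more libraries, and called genes had a Benjamini-Hochberg adjusted p under 0.05 over all of them. The fit was also run on simulated data without the differences between numbered libraries seen here, so that run does not vouch for the calls. Within this series, edgeR 4.0.16 and DESeq2 1.42.0 on the recovered reads, other scalings, pseudocounts, filters, blocks and leaving out libraries were alternatives. Normalized counts of different libraries can be compared only if most genes do not change together. The same-numbered libraries deviated together from their group means. Correlations were 0.645 to 0.734 between groups of one shRNA (6 pairs) and 0.247 to 0.307 between groups of different shRNAs (9 pairs). The numbers thus pair the samples, but the main test does not use this pairing. A gene that did not pass it may pass a blocked fit. Counts with the replicate block are printed where they moved by over 1.5 times. Those with the block within each shRNA are given for all genes and a few lists.

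Named genes were the 12 largest rises and falls, the 6 largest gains and losses in counts, up to 4 called members of each list in each direction by adjusted p, up to 4 genes whose pairs moved apart most, and LAD1, EGFR, FLNA and the cell markers. Some genes that this rule names are not reported here. Genes outside this rule were named after their values were seen. Members and lists were chosen with earlier results of these data known. Promoters came from RefSeq windows of 300 bases, 250 before and 50 after each annotated start. Motif shares are given only for lists with at least 80% of members matched. They cover all tested members, called or not, so they describe the lists and not the response.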

Additional observations from a re-analysis of the deposited data

How the results depend on the processing

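The number of genes called between 240 and 0 min in scramble cells (2813) was 4557 with the replicate block and 6715 with the replicate block within each shRNA, and 1354 to 1700 without any 1 of the 4 libraries. Genes called higher numbered 2509 and 3525 in those blocked fits and 835 to 1063 with a library left out. Genes called lower numbered 2048 and 3190 in the blocked fits, 1790 with upper-quartile factors, 2205 with total-count scaling and 423 to 637 with a library left out. Genes called over 2-fold higher (350) numbered 545 with the block within each shRNA and 246 to 291 with a library left out, and those over 2-fold lower (238) numbered 430, 368 with total-count scaling and 138 to 201. edgeR called 2784 genes, DESeq2 2657 and limma on the 4 libraries alone 3076. In shLAD1 cells the count (2585) was 4249 and 6450 in the blocked fits, 300 on its own 4 libraries and 1303 to 1888 with a library left out. The difference of the responses was called in 27 genes with the block within each shRNA and in 0 with the other settings run. Of 248 named genes 230 were called, 144 of these kept their call under every setting run, and 0 changed direction. With a library left out, each arm so reduced has 1 sample that is assumed to vary like the others. Counts that moved by over 1.5 times with a library left out, the replicate block or total-count scaling are given beside each list reported. For prostaglandin and retinoid genes those with a library left out are not given. Those with the block within each shRNA are given for only a few lists. Rises of the mitochondrial ribosomal proteins (11 of 79) numbered 1 with total-count scaling.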

Other observations

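Gene families gathered by symbol alone were counted in the same way, and they too were chosen with earlier results of these data known. Counts that moved by over 1.5 times are in brackets, for the same settings as the lists. Of all 13950 genes tested 11.7% were called higher and 8.44% lower. Of 19 SNHG genes, which host small nucleolar RNAs in their introns, 7 were called higher and none lower, with a median change of 0.40 (2 to 7 higher with a library left out, moved over 1.5 times without number 1 at 0 min, number 2 at 0 min and number 2 at 240 min). SNHG15 changed by 0.90 ± 0.18 (adjusted p = 0.00752). Of 38 DDX helicase genes 12 were called higher and 1 lower, the pseudogene DDX12P (5 to 10 higher and 0 to 1 lower with a library left out, moved over 1.5 times without number 1 at 0 min, number 2 at 0 min and number 2 at 240 min; 14 higher and 3 lower with the replicate block; 6 higher and 3 lower with total-count scaling). Of 23 HOX genes none was called higher and 6 were called lower (1 to 3 lower with any 1 library left out; 1 higher and 7 lower with the replicate block). Those lower were HOXB5 (-1.37 ± 0.25), HOXA5 (-1.24 ± 0.38), HOXC6, HOXA3, HOXB6 and HOXB7. HOXC6 had 57.4 and 59 normalized counts at 240 min and 109 and 94.6 at 0 min (-0.79 ± 0.19). Of 251 solute carrier genes 38 were called higher and 17 lower, a balance that turned with total-count scaling (15 to 20 higher and 9 to 11 lower with any 1 library left out; 59 higher and 33 lower with the replicate block; 25 higher and 34 lower with total-count scaling). Those lower included SLC2A4, the insulin-regulated glucose transporter GLUT4 (-1.46 ± 0.43), and SLC2A12 (-1.52 ± 0.23). Of 30 kinesin genes 9 were called lower and 1 higher, KIF13B (0 higher and 4 to 6 lower with a library left out, moved over 1.5 times without number 1 at 0 min, number 2 at 0 min and number 1 at 240 min; 3 higher and 11 lower with the replicate block). Of 444 ZNF genes 27 were called higher and 39 lower (8 to 17 higher and 13 to 20 lower with any 1 library left out; 40 higher and 68 lower with the replicate block; 17 higher and 67 lower with total-count scaling). Of 144 LINC-named RNAs 3 were called higher and 12 lower (2 to 3 higher and 3 to 7 lower with any 1 library left out; 7 higher and 23 lower with the replicate block; 3 higher and 21 lower with total-count scaling). Of 348 antisense genes 4 were called higher and 27 lower (1 to 3 higher and 6 to 13 lower with any 1 library left out; 12 higher and 53 lower with the replicate block; 4 higher and 52 lower with total-count scaling). Strand use in counting is not stated, so antisense reads and those of the opposite gene cannot be told apart.

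Of 26 prostaglandin and retinoid genes 3 were called higher (11.5%) and 1 lower (3.85%), with a median change of 0.05 (5 higher and 3 lower with the replicate block; 3 higher and 2 lower with total-count scaling). These shares were not above the 11.7% and 8.44% of all genes tested. ALDH1A3, which makes retinoic acid, had 4892 and 3665 normalized counts at 240 min and 1720.4 and 875 at 0 min (1.79 ± 0.36, adjusted p = 0.0104). The retinoid receptor gene RXRA was lower (-0.54 ± 0.09). Among Wnt and Notch genes 4 of 33 were called higher and none lower (1 higher with any 1 library left out; 6 higher and 2 lower with the replicate block; 2 higher and 2 lower with total-count scaling). The Wnt receptors FZD5 and FZD8 changed by 1.15 ± 0.26 and 1.24 ± 0.37, AXIN1 by 0.65 ± 0.06 and MFNG by 1.77 ± 0.51. SRXN1, sulfiredoxin, was the 1 gene called higher of 22 metallothionein and antioxidant genes (0.93 ± 0.12, adjusted p = 0.00106). HMOX1, heme oxygenase 1, was 1 of 2 called lower, at -0.73 ± 0.19 (1 higher and 0 to 1 lower with any 1 library left out; 4 higher and 2 lower with the replicate block). Of 17 clustered histone genes 4 were called lower and none higher (0 to 2 lower with any 1 library left out). Their transcripts mostly lack the poly-A tail that the libraries select.

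Some genes moved apart in the pairs and did not pass the test. RMRP, an RNA of mitochondrial RNA processing, had 24.8 and 111 normalized counts at 240 min and 43.5 and 33.9 at 0 min. MT1E, a metallothionein, had 199 and 34.5 at 240 min and 163 and 66.8 at 0 min, and MMP2, a matrix protease, had 101 and 16.7 at 240 min and 114 and 7.2 at 0 min. MMP2 is among the 32 genes over 4-fold higher in number 1 than in number 2 at both times. Of those genes 3 were over 4-fold higher in number 1 in all 6 pairs of libraries of the series, and 1 was called at 240 min with the replicate block.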
